A study of Mus musculus with 6 samples.

Results

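The immediate early and AP-1 genes described here are 10 transcription factors and response genes: Egr1, Egr2, Fos, Fosl2, Jun, Junb, Jund, Atf3, Ier2 and Ier3. They were chosen by gene symbol. Every probe set that the platform annotation gives to one of these symbols was taken, which yielded 12 probe sets for the 10 genes, out of 22690 probe sets and 12393 genes with a single symbol in all. Egr2 and Jun have 2 probe sets each. Where 1 value per gene was needed, the probe set with the higher mean signal was used.

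Each sample was RNA from the colon epithelium of mice that ate a standard diet (control) or one with 0.4% UDCA (ursodeoxycholic acid) added. UDCA is a relatively hydrophilic bile acid that is given to patients with cholestatic liver disease. RNA of 2 animals was pooled for each Affymetrix array, so that 6 animals per group gave 3 pools per group, called 1+2, 3+4 and 5+6 after the animals in them. The design text counts 6 samples per group but names 3, and the labels add the name of a rat intestinal cell line, IEC-6, to the mouse tissue. No strain, age, genotype or length of feeding is given in the sources used here. Pooling hides the spread between the animals within a pool, and the number of arrays limits the precision of every value below.

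Immediate early genes are transcribed within minutes of a stimulus such as a growth factor, serum or cell stress, without new protein synthesis, and their mRNAs are short-lived. Growth factor receptors reach them through the ERK and p38 kinases, which act on serum response factor with its partner ELK proteins and on CREB at promoter elements called the CArG box and the cAMP response element. Their products are themselves mostly transcription factors: FOS and JUN proteins pair through leucine zippers to form AP-1, and EGR proteins bind GC-rich sites through zinc fingers. In the intestinal epithelium they are known to respond to growth factors and injury, and also to the handling of tissue during cell isolation.

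RefSeq promoter windows (GRCm38.p6), covering 250 bases before to 50 after each transcription start, were given for 8 of the 10 genes, and only the bases before the start were searched, on both strands. Stretches of 4 genes are shown because they hold the letters of the elements named above. Capitals mark TGACG or its reverse complement (the core letters of the cAMP response element), TATAAA and, in Egr2, the CArG box. The Fos, Junb and Atf3 stretches are the 150 bases just before the start, and the Egr2 stretch is the 30 bases from 80 to 51 before 1 of its 5 annotated starts.
Fos (chr12:85473740-85473889, plus strand): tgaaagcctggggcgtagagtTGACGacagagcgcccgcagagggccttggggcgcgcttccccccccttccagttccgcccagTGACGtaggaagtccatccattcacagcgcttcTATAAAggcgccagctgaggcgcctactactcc
Junb (chr8:84978749-84978898, minus strand): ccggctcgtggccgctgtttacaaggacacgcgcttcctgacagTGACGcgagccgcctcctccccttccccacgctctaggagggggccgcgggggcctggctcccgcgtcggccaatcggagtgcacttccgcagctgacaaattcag
Atf3 (chr1:191183334-191183483, minus strand): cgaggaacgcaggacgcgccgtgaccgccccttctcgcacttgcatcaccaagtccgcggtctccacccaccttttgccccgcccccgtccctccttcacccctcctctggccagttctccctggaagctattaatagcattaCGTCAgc
Egr2 (chr10:67537789-67537818, plus strand): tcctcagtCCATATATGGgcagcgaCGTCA

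In the Fos stretch the TGACG matches begin 129 and 66 bases before the start and the TATAAA begins 33 bases before it. TGACG was present for 4 of the 8 genes (Egr2, Fos, Junb and Atf3). Counted by window, it was in 6 of the 12 windows of the 8 genes and in 17.8% of all 32851 windows given. The Egr2 windows with TGACG overlap and hold the same matches, so the count by window repeats them. TATAAA was found for Fos alone among the 8, in 1 of the 12 windows, against 12.4% of all windows. A CArG box was found for Egr2 alone among the 8, in 4 of its 5 windows, against 1.47% of all windows. Several of these windows overlap and hold the same CCATATATGG site, so the count by window repeats it. The remaining match was CCTTTTTTGG in a separate window. Egr1 and Ier2 had no window, and bases further upstream were not searched, so a CArG box there would have been missed. The full element TGACGTCA and the AP-1 site TGANTCA were in no window of the 8 genes and in 1.55% and 6.75% of all windows, and the EGR site GCGNGGGCG was in the Fosl2 window and in 4.7% of all. The TGACG letters also lie within TGACGTCA, and the matches describe letters in these windows and nothing of binding.

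Signals are given below after quantile normalization, which sets the 6 arrays to a common distribution; the deposited signals of the arrays had medians from 67.4 to 87.3. Differences are UDCA minus control on the scale of log2(normalized signal + 16), with the standard error and 95% interval of a limma fit. The test covered the brighter 50% of probe sets, 11313 whose mean on the log2 scale corresponds to a signal of 76.0 or more (p adjusted by Benjamini-Hochberg, threshold 0.05). All 12 probe sets lay in that range. Egr2 did so through its control pools, its mean being 117.8 ± 31.1 in the control pools and 60.6 ± 29.9 in the UDCA pools (SD, n = 3 each).

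None of the 10 genes passed the limma test, and 4 had an unadjusted p under 0.05 (Egr2, Junb, Jund and Ier2), beside 974 of the 6770 genes tested. On the deposited scale there were 2 such genes, Egr2 (lower) and Ier3 (higher). Over all probe sets only 1 of 11313 (0.00884%) was called, Apoc2. The fitted difference was below 0 for 9 of the 10 genes and above 0 for Ier3, with a median of -0.19 against 0.00 for all genes tested. On the deposited scale 8 of 10 were below 0 and the median was -0.07. The groups did not overlap for 1 gene, Egr2, with UDCA lower; over all probe sets tested this held for 8.37% with UDCA lower and for 10.9% with UDCA higher.

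The pools did not vary alike. UDCA pool 5+6 had the lowest of the 6 normalized signals for 8 of the 10 genes, the exceptions being Ier2 and Ier3, whereas it was the lowest array for 13.6% of all probe sets tested. On the deposited signals it was lowest for 9 of 10, against 21.0% of all probe sets. UDCA pool 1+2 was the highest array for 3 genes and the lowest for none, against 18.6% and 18.5% of all probe sets tested. Control pool 1+2 was likewise the highest array for 3 genes, against 18.9% of all. For 1 of these, Jund, it tied with control pool 3+4 at 3451.4. Averaged over the 10 genes, each centred on its own mean, the log2 signals stood at 0.12, 0.16 and 0.03 in control pools 1+2, 3+4 and 5+6, and at 0.22, -0.14 and -0.40 in UDCA pools 1+2, 3+4 and 5+6. Pool 5+6 was singled out after these values were seen, and as a single pool it has no test.

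**Figure D1:**
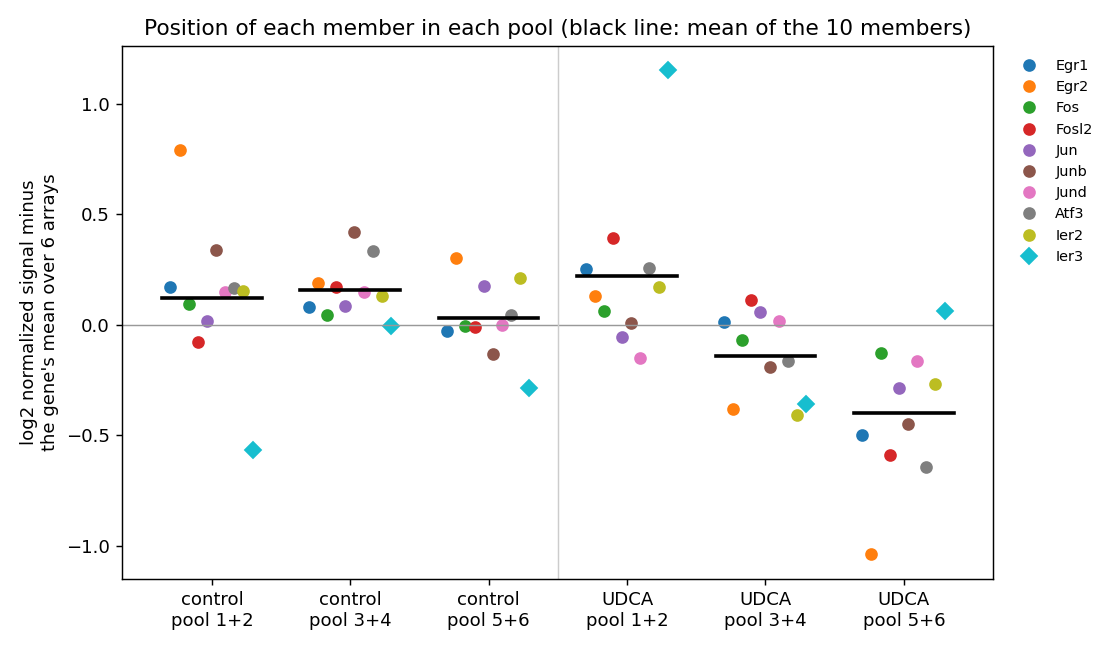
Log2 normalized signal of each gene minus its mean over the 6 arrays (vertical axis) in each pool (horizontal axis); 1 point per gene, with a black line at the mean of the 10 genes. In UDCA pool 5+6 the black line lies at -0.40 and all genes but Ier3 lie below 0, and in UDCA pool 1+2 Ier3 stands above the others.

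Fos and Fosl2 encode leucine zipper proteins that join a JUN partner in AP-1. Fos is known for rapid and brief induction. Its probe set 1423100_at had normalized signals of 7597, 7311 and 7087 in control pools 1+2, 3+4 and 5+6. They were 7437, 6780 and 6516 in the UDCA pools in the same order. The groups overlapped, and the highest and lowest arrays were control pool 1+2 and UDCA pool 5+6. The difference was -0.09 (SE 0.06, 95% interval -0.22 to 0.05, limma adjusted p = 0.529), and on the deposited scale it was 0.01, with no settled sign.

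Fosl2, which encodes FRA-2, a FOS relative without the strong activation domain of FOS, was measured by 1422931_at. Its normalized signals were 197.9, 238.5 and 208.7 in the control pools and 280.8, 227.8 and 133.8 in the UDCA pools. The UDCA pools thus held both the highest and the lowest of the 6 arrays. The difference of -0.06 (SE 0.23, interval -0.58 to 0.47, limma adjusted p = 0.922) became 0.22 (interval -0.11 to 0.56, limma adjusted p = 0.458) without UDCA pool 5+6.

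Jun encodes c-JUN, which can pair with itself as well as with FOS and ATF proteins. Its brighter probe set 1417409_at had normalized signals of 6971, 7297 and 7775 in the control pools and 6631, 7179 and 5654 in the UDCA pools. The groups overlapped, since UDCA pool 3+4 lay above control pool 1+2. The difference was -0.18 (SE 0.09, interval -0.38 to 0.01, limma adjusted p = 0.385), and it was -0.08 on the deposited scale and -0.09 without UDCA pool 5+6.

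The other Jun probe set, 1448694_at, had normalized signals of 930.9, 822.5 and 978.6 in the control pools and 791.3, 688.9 and 510.6 in the UDCA pools. Here every UDCA pool was below every control pool, although on the deposited signals the groups overlapped. Its difference was -0.47 (SE 0.16, interval -0.83 to -0.10, limma adjusted p = 0.315). Both Jun probe sets therefore had the same sign and UDCA pool 5+6 as the lowest array, with unequal sizes.

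Junb encodes a JUN protein that often restrains c-JUN. Its probe set 1415899_at had normalized signals of 1858, 1962 and 1340 in the control pools and 1474, 1284 and 1063 in the UDCA pools. Control pool 5+6 fell among the UDCA pools, so the groups overlapped. The difference was -0.42 (SE 0.17, interval -0.80 to -0.04, limma adjusted p = 0.336).

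Jund, the JUN gene that is less dependent on a stimulus and is expressed in resting cells, had normalized signals of 3451, 3451 and 3114 in the control pools and 2800, 3149 and 2774 in the UDCA pools (1449117_at). UDCA pool 5+6 was lowest by a margin of only 0.01 on the log2 scale, and UDCA pool 3+4 lay above control pool 5+6. The difference was -0.20 (SE 0.08, interval -0.38 to -0.02, limma adjusted p = 0.336), and on the deposited scale it was -0.06.

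Atf3, a stress-induced bZIP factor of the ATF family that can pair with JUN proteins, had normalized signals of 3674, 4146 and 3387 in the control pools and 3916, 2919 and 2093 in the UDCA pools (1449363_at). UDCA pool 1+2 lay within the control pools and the other two lay below them. The difference of -0.37 (SE 0.20, interval -0.82 to 0.08, limma adjusted p = 0.426) was -0.14 (interval -0.46 to 0.18) without UDCA pool 5+6.

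Egr1 encodes a zinc finger factor induced by growth factors and injury. Its probe set 1417065_at had normalized signals of 6664, 6258 and 5821 in the control pools and 7055, 5993 and 4185 in the UDCA pools. The UDCA pools held both the highest and the lowest array, and their SD of 1451 compares with 421 for the control pools (n = 3 each). The difference was -0.15 (SE 0.16, interval -0.53 to 0.22, limma adjusted p = 0.684) with all arrays and 0.06 (interval -0.15 to 0.26) without UDCA pool 5+6.

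Egr2, best known for its role in myelinating Schwann cells and in lymphocytes, encodes a zinc finger factor related to EGR1. The brighter Egr2 probe set, 1427683_at, had normalized signals of 153.4, 95.6 and 104.5 in the control pools and 91.2, 59.1 and 31.6 in the UDCA pools. All UDCA pools were below all control pools, by a narrow margin between UDCA pool 1+2 and control pool 3+4. The difference was -0.86 (SE 0.29, interval -1.52 to -0.19), and it did not pass the test (limma adjusted p = 0.314). The signal of 31.6 lies below the range tested and below the highest mean among markers of other cell types (46.1), so the size depends on the constant added before the log: it was -1.04 with 1 and -0.56 with 64 in place of 16.

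Leaving out UDCA pool 5+6 brought the Egr2 difference to -0.55 (interval -1.10 to 0.00, limma adjusted p = 0.295). The other Egr2 probe set, 1427682_a_at, had normalized signals of 103.3, 109.8 and 112.8 in the control pools and 104.3, 68.6 and 25.1 in the UDCA pools. It overlapped between groups because UDCA pool 1+2 lay just above control pool 1+2. The signals of 68.6 and 25.1 in UDCA pools 3+4 and 5+6 again lie below 76.0. Its difference was -0.74 (SE 0.34, interval -1.51 to 0.03, limma adjusted p = 0.383).

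Ier2 encodes a small nuclear protein induced with the FOS and JUN genes. Its probe set 1416442_at had normalized signals of 4093, 4015 and 4247 in the control pools and 4125, 2760 and 3051 in the UDCA pools. UDCA pool 1+2 lay within the narrow range of the control pools, and UDCA pools 3+4 and 5+6 lay below it. The difference was -0.33 (SE 0.13, interval -0.64 to -0.03, limma adjusted p = 0.336), and -0.18 on the deposited scale.

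Ier3 encodes a stress-inducible protein that acts on cell survival and on ERK and NF-kappaB signalling, and it differed in sign from the other 9 genes. Its probe set 1419647_a_at had normalized signals of 213.5, 322.6 and 261.3 in the control pools and 741.3, 249.6 and 339.5 in the UDCA pools. UDCA pool 1+2 stood far above the other 5 arrays, while UDCA pool 3+4 lay within the control pools and UDCA pool 5+6 just above them. The difference of 0.58 (SE 0.34, interval -0.21 to 1.36, limma adjusted p = 0.464) was 0.14 without UDCA pool 1+2.

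**Figure D2:**
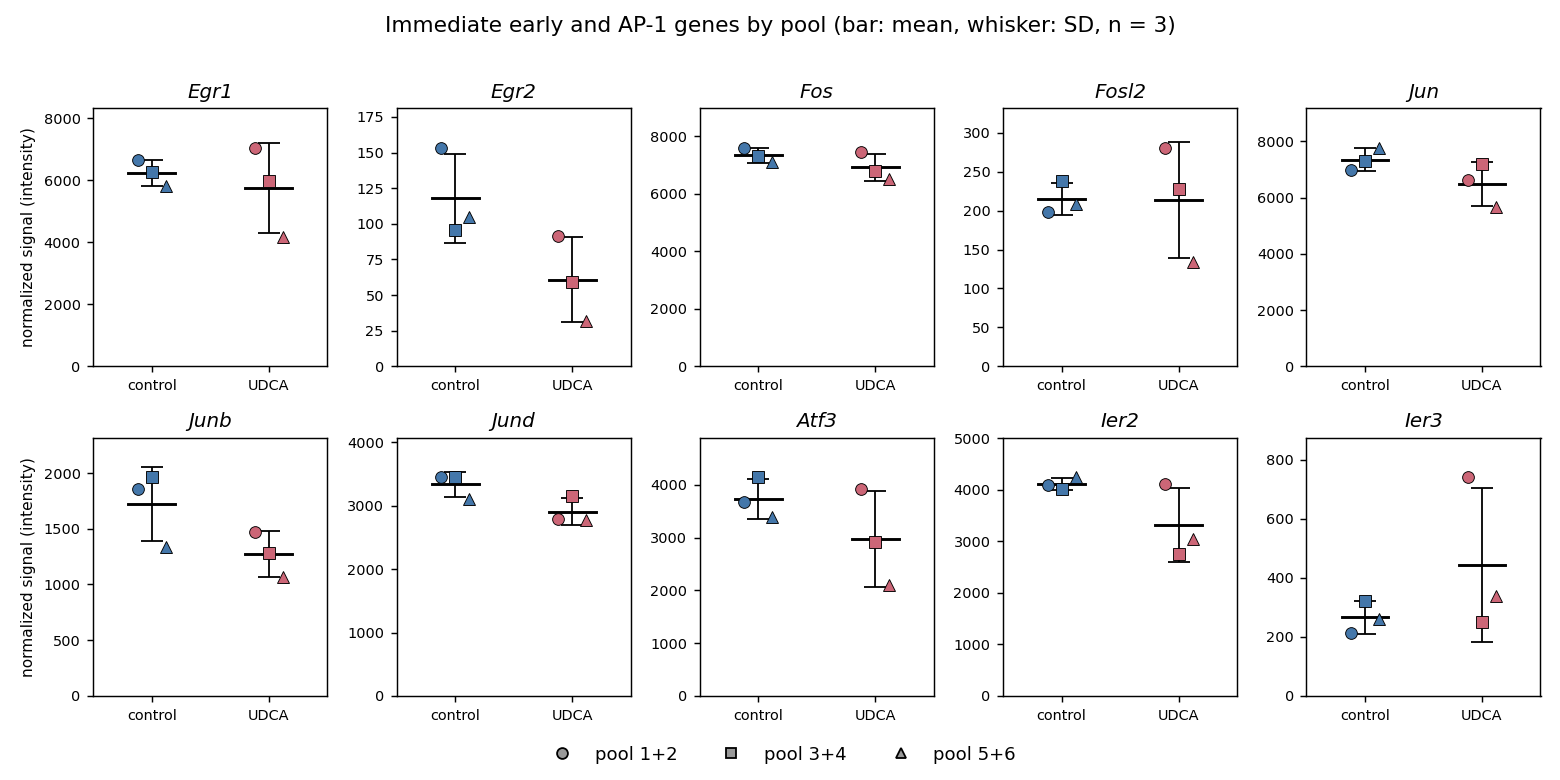
Normalized signal of the brighter or only probe set of each gene (vertical axes, starting at 0) in the control and UDCA pools; symbols mark the pool, bars the mean and whiskers the SD of 3 pools. For Egr1, Fosl2, Atf3 and Egr2 the triangle of UDCA pool 5+6 lies well below the other UDCA pools, and the control pools of Ier2 lie between 4015 and 4247.

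Within the UDCA group, pool 5+6 was lower than the mean of pools 1+2 and 3+4 by a median of -0.35 on the log2 scale over the 10 genes, while the median over all probe sets tested was 0.01. The gap was -0.84 for Fosl2, -0.69 for Atf3 and -0.63 for Egr1. For Egr2 it was -0.91 against the low signal of 31.6, and its size depends on the added constant. It was -0.37 for Junb, -0.34 for Ier3 and -0.29 for Jun, and it lay between -0.14 and -0.10 for Ier2, Fos and Jund. Egr1, Egr2, Fosl2 and Atf3 thus had wide gaps, whereas Fos, Jund and Ier2 had narrow ones.

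UDCA pools 1+2 and 3+4 alone, set against the 3 control pools, left 7 of 10 genes below 0 with a median of -0.11. None passed the limma test, and 1 had an unadjusted p under 0.05, beside 1213 of the 6770 genes tested. Egr1 and Fosl2 changed sign. Egr2, Junb, Ier2 and Jund kept differences of -0.55, -0.30, -0.29 and -0.17. Ier3 stood at 0.69 (interval -0.23 to 1.61).

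**Figure D3:**
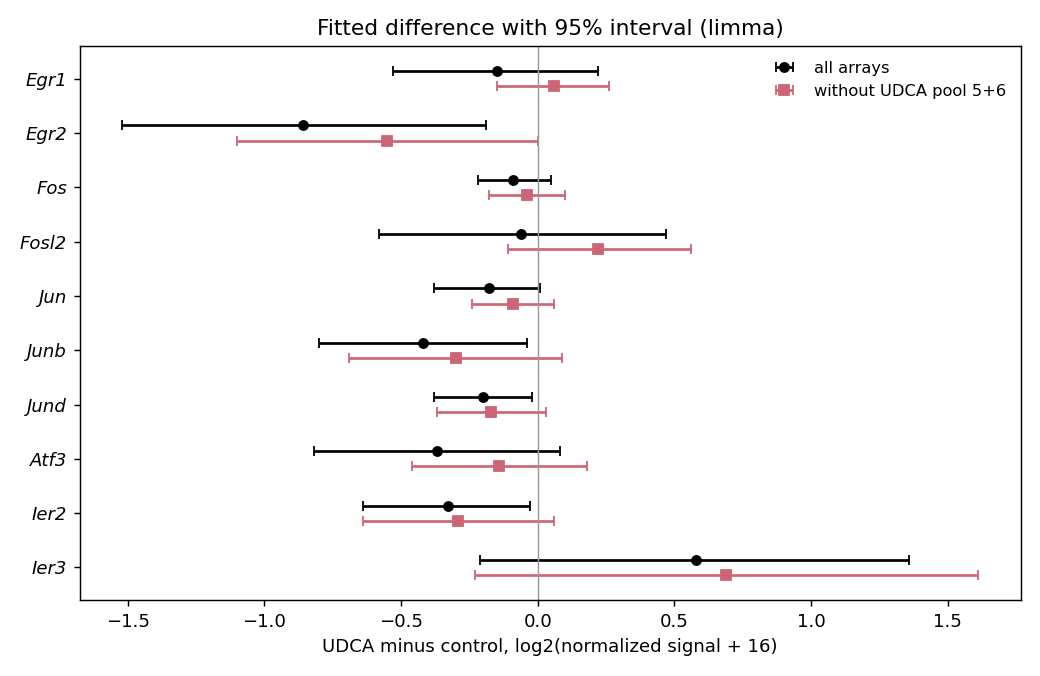
Fitted UDCA minus control difference of each gene on the log2(normalized signal + 16) scale (horizontal axis) with its 95% interval, for all 6 arrays (black circles) and without UDCA pool 5+6 (red squares). Egr1 and Fosl2 lie on opposite sides of 0 in the pair of fits, and no gene passed the adjusted test in either.

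The 10 genes followed each other across the 6 arrays to different degrees. Pearson's r of a gene with the mean of the other 9, a description over 6 arrays that share the same RNA pools, was 0.98 for Atf3, 0.94 for Fos, 0.92 for Egr1 and 0.80 for Fosl2. It was 0.76 for Egr2 and Junb, 0.75 for Ier2, 0.57 for Jun, 0.40 for Jund and 0.02 for Ier3. Outside the 10 genes, the profiles most like their mean were those of Zfp36 (r = 0.989), Zc3h12a (0.985), Lrba (0.984), Cpt1a (0.984) and Spen (0.978), each over 6 arrays. Zfp36 had normalized signals of 4153, 4229 and 3949 in the control pools and 4594, 3502 and 2557 in the UDCA pools. For single genes the closest profiles were Fam160a2 for Egr1 (0.988), Vmp1 for Egr2 (0.982), Cpt1a for Fos (0.975), Abcc3 for Fosl2 (0.988), Gdap10 for Jun (0.993), Rnf128 for Junb (0.996), B3gnt2 for Jund (0.994), Spen for Atf3 (0.987), Foxa1 for Ier2 (0.970) and Epn3 for Ier3 (0.982). The profiles of all other tested genes were searched over only 6 arrays, and r is given as a description.

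Other genes of the same response were taken from lists. Among the other AP-1 and related bZIP genes, 14 of 23 were tested and none passed in either direction, with 6 above and 8 below 0 and a median of -0.07. The 4 with the smallest p were Atf6 (-0.34), a sensor of endoplasmic reticulum stress, Creb1 (0.35), which binds the cAMP response element, Atf4 (-0.22), a factor of the integrated stress response, and Mafk (-0.26), a small MAF protein. UDCA pool 5+6 was the lowest array for 8 of the 14 genes.

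Of 48 other immediate early genes, 35 were tested and none passed, with 15 above and 20 below 0 and a median of -0.02. Among those with the smallest p were Id2 (0.44), an inhibitor of basic helix-loop-helix factors, Cxcl1 (0.59), a neutrophil chemokine, and Btg2 (-0.41), an antiproliferative gene. UDCA pool 5+6 was the lowest array for 16 of the 35 genes (45.7%), against 13.1% of all genes tested. Its gap to the other UDCA pools had a median of -0.40 in this list and of -0.28 among the bZIP genes.

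The widest gaps in the last-named lists, picked after their values were seen, were those of the nuclear receptor gene Nr4a1 (-1.55), the FOS relatives Fosb and Fosl1 (both -1.41) and Arc (-1.22), a gene best known from neurons. The deposited signals of Nr4a1 were 2182.2, 2963.6 and 1798.6 in the control pools and 2103.0, 2124.0 and 601.5 in the UDCA pools. For Fosb they were 645.2, 767.0 and 530.2 in the control pools and 895.0, 775.2 and 254.8 in the UDCA pools. In both genes UDCA pool 5+6 lay far below the other 5 arrays. Fosl1 was dim, with deposited signals of 55.4, 138.5 and 136.7 in the control pools and 244.8, 143.5 and 49.6 in the UDCA pools. Its UDCA pool 5+6 lay near control pool 1+2, and the size of its gap depends on the added constant. Exceptions in the other direction were Plk2, Zfp36l2 and Gadd45b, with 0.48, 0.39 and 0.35.

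Upstream of these genes, 18 of 32 receptors, kinases and serum response factors were tested, and none passed. Erbb3 (-0.49) and Erbb2 (-0.26), receptors of the EGF receptor family, Mrtfa (-0.33), a coactivator of serum response factor, and Elk4 (-0.24), one of its partners, had the smallest p. UDCA pool 5+6 was the lowest array for 2 of the 18, and the median gap was 0.01, near that of all genes. Downstream, 8 of 19 EGR corepressors and AP-1 target genes were tested and none passed. For 3 of these 8 genes (37.5%) the lowest array was UDCA pool 5+6. Odc1 (0.29), the polyamine enzyme ornithine decarboxylase, Bcl3 (-0.21), an NF-kappaB cofactor, Cd44 (0.39), a hyaluronan receptor, and Plaur (0.41), the urokinase receptor, had the smallest p there.

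**Figure D4:**
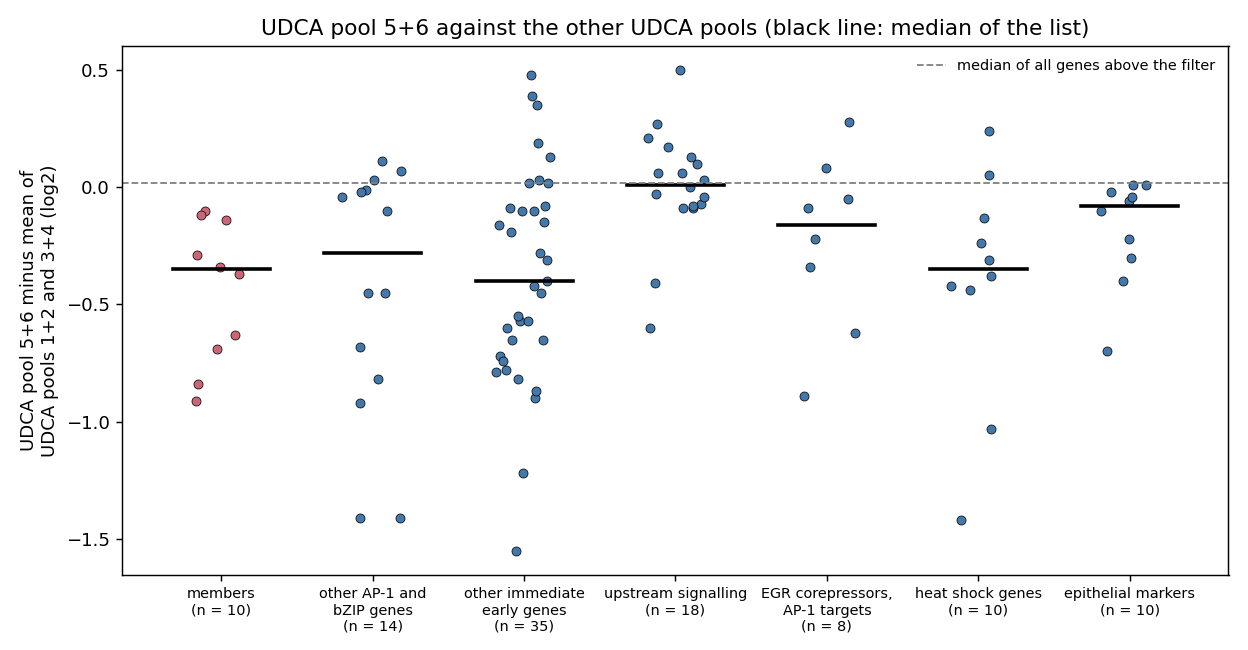
Log2 normalized signal of UDCA pool 5+6 minus the mean of UDCA pools 1+2 and 3+4 (vertical axis) for each tested gene of 7 lists (horizontal axis); black lines are list medians and the dashed line is the median of all genes tested. The medians were -0.35 for the 10 genes, -0.28 for other AP-1 and bZIP genes, -0.40 for other immediate early genes, 0.01 for upstream signalling, -0.16 for corepressors and targets, -0.35 for heat shock genes and -0.08 for epithelial markers.

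Heat shock genes, which encode chaperones and are known to rise with heat and with tissue handling, also differed between the pools. Their summed normalized signal over 10 genes was 27993, 28412 and 30959 in the control pools and 39817, 38639 and 30732 in the UDCA pools. UDCA pools 1+2 and 3+4 lay above every control pool, and UDCA pool 5+6 lay within the control range. The differences of Hspa8 (0.52), Hsph1 (1.40), Hspe1 (0.34) and Dnaja1 (0.76) did not pass the test, and the list's median was 0.33 with 9 of 10 genes above 0. For 1 of these 10 genes the lowest array was UDCA pool 5+6. The part of handling in the values of the immediate early genes was not tested.

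The tissue label was set against marker genes. All 10 epithelial markers were among the tested probe sets, and their summed normalized signal was 61481 to 63992 in the control pools, and 64194, 64100 and 59301 in UDCA pools 1+2, 3+4 and 5+6. For 5 of these 10 markers the lowest array was UDCA pool 5+6, so this position was not limited to immediate early genes. Their median gap to the other UDCA pools was -0.08. None of 30 markers of fibroblasts, smooth muscle, endothelium and leukocytes was among the tested probe sets, and the highest mean signal among them was 46.1. Summed, they came to 427.7 to 494.4 in the control pools and 475.7 to 488.8 in the UDCA pools, with 487.1 in pool 5+6. Taken by type, the leukocyte markers came to 149.6 to 170.9 in the control pools and to 186.3, 227.5 and 177.6 in UDCA pools 1+2, 3+4 and 5+6, above every control pool. Endothelial markers came to 59.7 to 65.7 in the control pools and 73.2, 62.6 and 71.8 in the UDCA pools. These are sums of very dim markers, with a median signal of 10.6 for leukocytes and 10.8 for endothelium. Single markers of both types went in either direction. The fibroblast and smooth muscle sums of all UDCA pools lay within the control range. The part of these cell types in the values of the immediate early genes was not tested. The ratio of the 3′ to the 5′ actin control probe sets, a measure of RNA integrity, was 1.19 to 1.22 in the control pools and 1.15, 1.24 and 1.25 in UDCA pools 1+2, 3+4 and 5+6. Fewer expressing cells and less RNA per cell cannot be told apart in such pools.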

How the data were processed

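The authors' deposited value table holds 1 linear signal intensity per probe set and array. Per the submitters' processing notes, it was made with GCOS, Affymetrix's array software, with no settings or version stated in the labels. Per the labels' protocols, biotin-labelled cRNA was made from 3 µg of Trizol-extracted total RNA. Arrays were quantile normalized, 16 was added, log2 was taken, and probe sets in the upper 50% by mean, without the 64 Affymetrix controls, were fitted with limma 3.58.1 (R 4.3.3; eBayes with trend). The code was checked on simulated data with known differences.

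Of the other probe sets, 20380 carry 1 gene symbol, 691 several and 1555 none; none of those with several carries a member's symbol. All member genes are named. In each accompanying list up to 4 genes with the smallest p are named, and for likeness the 5 genes with the highest Pearson r to the mean profile and 1 for each member. One gene that this rule names is not reported here. Members and lists were chosen with earlier results of these data known. Pools are separate samples of different animals per the design text. No date or scan batch is given in the labels. Alternatives covered the scaling, the added constant, the filter, the variance model, array weights, the threshold, the choice of probe set, the pool number as a block and leaving out each pool. The deposited table of fold changes was not used.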

Additional observations from a re-analysis of the deposited data

How the results depend on the processing

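No member passed the limma test under any of the 19 settings (at an unadjusted p under 0.05, 4 of 10 as reported, 2 on the deposited signals and without trend, 1 with median scaling, 3 with trimmed means and array weights, 5 with the replicate block, and 0 to 5 with 1 pool left out). An unadjusted limma p under 0.05 was also reached by 1546 of all 11313 probe sets tested, as reported and without trend. The number was 840 on the deposited signals, 1997 with median scaling, 1540 with trimmed means and 2179 with array weights. It was 1492 with the replicate block and 755 to 2086 with 1 pool left out. Of 169 member differences recomputed under the alternatives, 163 kept their sign and 6 changed it. The sign changed for Fos on the deposited scale (0.01) and with arrays divided by their median (0.00), and for Fosl2 with array weights (0.03). Leaving out 1 pool at a time gave -0.27 to 0.22 for Fosl2, with a change of sign without control pool 3+4 (0.01) and without UDCA pool 5+6, and -0.32 to 0.06 for Egr1, with a change without UDCA pool 5+6. Sizes moved too: with median scaling Jund stood at -0.07 and Ier2 at -0.19, and with 1 pool left out Ier2 ranged from -0.50 to -0.21, Jun from -0.26 to -0.09 and Ier3 from 0.14 to 0.90. Egr2 ranged from -1.14 to -0.55 and was not in the tested range without control pool 1+2. The median of the members stayed between -0.29 and -0.07.

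The number of probe sets called was 78 on the deposited signals, and 0 without a filter (2313 at an unadjusted p under 0.05), in the upper 25% (787, with 8 members tested) and with the pool number as a replicate block (1492). It was 0 to 36 when 1 pool was left out, the highest without control pool 5+6, and 6 without UDCA pool 5+6. Genes with groups that do not overlap in either direction numbered 2 of 10 with arrays divided by their 2% trimmed mean (19.4% of all probe sets) and 1 to 5 with 1 pool left out (24.4% to 38.8%), the highest without UDCA pool 1+2 (26.7%). This count was not run for the added constant, filter, variance model, weights or block. After each probe set's group mean was subtracted, control and UDCA pools 1+2, 3+4 and 5+6 correlated with their own number at -0.10, 0.16 and 0.05. Only control pool 3+4 correlated best with the UDCA pool of its own number. The numbers were therefore not taken as pairs, and the replicate block changed no call of a member. The causes of these changes were not tested.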
